A study of Mus musculus with 36 samples.

Results

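Tripeptidyl peptidase 1 (Tpp1), a serine protease of the lysosome, is lost in the Tpp1-/- mouse, a gene-targeted model of classical late infantile neuronal ceroid lipofuscinosis. Forebrain/midbrain tissue (F/M) and the cerebellum (Cb) of mice aged 1 and 3 months were profiled by RNA-seq, and the question was which expression differences between Tpp1-/- and control mice changed over this interval, and which 3-month differences already had their sign at 1 month. The libraries were chosen by age and region from the labels, which gave 24 of the 36 libraries, with 3 Tpp1-/- and 3 control mice in each region at each age. Controls were wild-type (wt) apart from control replicate 3 of 1 month, which is labelled Tpp1+/- in both regions, and all animals came from crosses of 1 targeted line. The mutation is present in every cell and from conception, so that age here is also the length of time without the enzyme.

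Loss of this protease leaves undigested peptides, among them subunit c of the mitochondrial ATP synthase, in lysosomal storage bodies of neurons and other cells. In the brain, microglia (resident phagocytes) and astrocytes answer storage and neuronal damage with gene programs of their own. Microglia raise receptors and lysosomal genes known as the disease-associated program, astrocytes raise intermediate filament and acute-phase genes, and both respond to interferons.

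Totals of assigned reads ran from 16823871 to 29942380 per library, with a median of 21417177. Some features of the libraries bear on every comparison of the ages. First, the ages were counted with different annotations, of which 54079 genes could be matched by identifier. Second, the reads went against the sex label in 12 libraries. All 12 libraries of 1 month held 4584 to 9273 reads of 4 Y-linked genes and at most 8 reads of Xist, although 4 are labelled female, and all 12 of 3 months held 12199 to 36339 reads of Xist and at most 1 Y-linked read, although 8 are labelled male. Age, sex as read from the libraries and processing set therefore cannot be told apart, while each Tpp1-/- and control contrast lies within 1 age and 1 sex. Lastly, 3 Cb libraries lay farthest from the others of their group, with a root mean square log2 distance of 0.611 (1-month Tpp1-/- 1), 0.675 (3-month Tpp1-/- 1) and 0.588 (3-month control 3), against 0.438 to 0.56 in the other Cb libraries and 0.401 to 0.444 in F/M. The tissue labels held, since 10 granule cell markers summed to 5420 to 7240 CPM (read counts per library size, with TMM factors applied) in Cb and to 220 to 266 CPM in F/M.

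Tpp1 itself (chr7:105744811-105752235, minus strand, GRCm38) was lower in Tpp1-/- mice at both ages. Its level in F/M was 74.6, 69.97 and 46.5 CPM in the 1-month controls, 16.3, 18.1 and 16.3 CPM in the 1-month Tpp1-/- mice, 43.5, 41.5 and 42.4 CPM in the 3-month controls and 16.1, 17.1 and 17.2 CPM in the 3-month Tpp1-/- mice. The Tpp1-/- libraries were alike at both ages, and the lowest 1-month control was the Tpp1+/- mouse, which lay close to all 3-month controls, although these are labelled wt. The difference was −1.91 ± 0.19 on the log2 scale (SE, edgeR adjusted p = 0.000705) at 1 month and −1.34 ± 0.08 (edgeR adjusted p = 3.98e-06) at 3 months. In Cb the levels were 88.95, 87.4 and 55.2 CPM in the 1-month controls, 16.9, 19.8 and 19.6 CPM in the 1-month Tpp1-/- mice, 52.9, 56.2 and 50.7 CPM in the 3-month controls and 21.7, 21.6 and 21.3 CPM in the 3-month Tpp1-/- mice, with differences of −2.04 ± 0.19 and −1.31 ± 0.08. The age difference was not called in either region (F/M 0.58 with an edgeR adjusted p of 1, Cb 0.74 with 0.307).

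The age difference of a gene is the log2 difference between Tpp1-/- and control mice at 3 months minus the same at 1 month, from 1 edgeR fit of the 24 libraries, and it was called at a Benjamini-Hochberg adjusted p under 0.1. In F/M, 13 of 18092 genes were called (0.0719%) and all 13 were higher at 3 months than at 1 month in Tpp1-/- mice relative to controls, beside 736 (4.07%) at an unadjusted p under 0.05. They were Gfap of astrocytes, the complement gene C4b of astrocytes and other glia, the microglial and myeloid genes Clec7a, Itgax, Mpeg1, Lag3, Lyz2 and Ccl6, the interferon-inducible Oasl2, Lgals3bp and Ifi44, and the Trim genes Trim12a and Trim30d. In Cb, 56 genes were called (0.31%), of which 35 were higher (0.193%) and 21 lower (0.116%), beside 1110 (6.14%) at an unadjusted p under 0.05. In all, 10 genes were called in both regions, and the 13 F/M genes all had a positive age difference in Cb, where the same mice may have been sampled. The medians of the called higher genes went in F/M from 0.161 at 1 month to 1.5 at 3 months and in Cb from 0.281 to 1.84, and those of the 21 lower Cb genes went from 0.668 to −0.847. These medians come from the fit by which the genes were chosen, and the choice favours a wide gap between the ages. The median age differences over all genes were 0.00536 in F/M and 0.00132 in Cb. Both counts depended on single libraries. With 1 library left out, the F/M count was 5 to 11 (5 without 3-month control 3 or 3-month Tpp1-/- 1) and the Cb count 28 to 823. The Cb count was 28 without 3-month Tpp1-/- 3, and 823 without 3-month Tpp1-/- 1, with all 56 genes among them. It was 908 without the 3 libraries farthest from their group, with 53 of the 56. With the 12 libraries of a region fitted alone, 602 genes were called in F/M and 8 in Cb. The split into higher and lower genes in Cb moved more than the total. It was 28 and 4 with limma-voom, 32 and 2 without 1-month control 3, and 353 and 470 without 3-month Tpp1-/- 1.

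**Figure D1:**
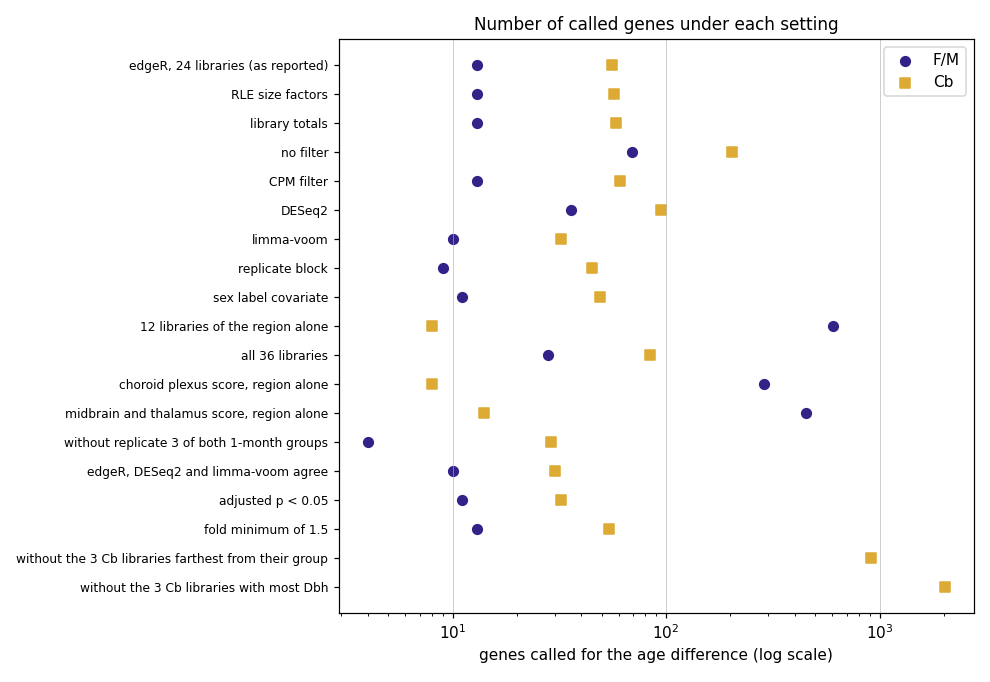
Number of genes called for the age difference (log axis) in F/M and Cb under each processing setting, where 1 point is 1 setting. Calls in F/M range from 4 to 602 and in Cb from 8 to 2018 (the highest from a fit with 1 control left in Cb at 3 months), around the values of 13 and 56 in the fit of 24 libraries.

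Gfap, a reactive astrocyte gene, was called in both regions. Gfap, the intermediate filament of astrocytes (chr11:102887336-102900912, minus strand), was measured in F/M at 178, 208 and 191 CPM in the 1-month controls, 200.3, 229 and 230.5 CPM in the 1-month Tpp1-/- mice, 172, 176 and 166 CPM in the 3-month controls and 448, 498 and 425 CPM in the 3-month Tpp1-/- mice. The 3-month Tpp1-/- libraries lay far above all others, whereas the 1-month groups overlapped, which gave an age difference of 1.22 ± 0.15 (SE, edgeR adjusted p = 0.000434). In Cb, Gfap was at 180.2, 184 and 154 CPM in the 1-month controls, 216, 226 and 227 CPM in the 1-month Tpp1-/- mice, 188, 180.4 and 169 CPM in the 3-month controls and 732, 511 and 592 CPM in the 3-month Tpp1-/- mice. Here the groups were already apart at 1 month, by 0.37 ± 0.09 (unadjusted p = 0.00102, edgeR adjusted p = 0.63, not called), and the age difference was 1.41 ± 0.15 (edgeR adjusted p = 3.65e-05). It was 1.18 without the 3 libraries farthest from their group. Serpina3n, a secreted protease inhibitor raised in reactive astrocytes, went from a 1-month difference of 0.45 to a 3-month difference of 2.59 in Cb, an age difference of 2.15 ± 0.31 (SE, edgeR adjusted p = 0.00159), and from 0.09 to 1.08 in F/M, where the age difference was not called (edgeR adjusted p = 0.47). Of 22 reactive astrocyte genes, 2 were called higher in F/M and 3 in Cb, beside 0.0719% and 0.193% of all genes. Age differences were positive for 17 in F/M and 20 in Cb, against 51% and 50.2% of all genes. At 3 months, 4 in F/M and 10 in Cb were higher at an adjusted p under 0.1 and at least 1.5-fold (0.412% and 0.673% of all genes). The median difference went in F/M from 0.135 to 0.323 and in Cb from 0.102 to 0.732. Of 16 genes of homeostatic astrocytes and Bergmann glia none was called in either region, and their summed level in Cb was 9360 to 10300 CPM over all 12 libraries.

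**Figure D2:**
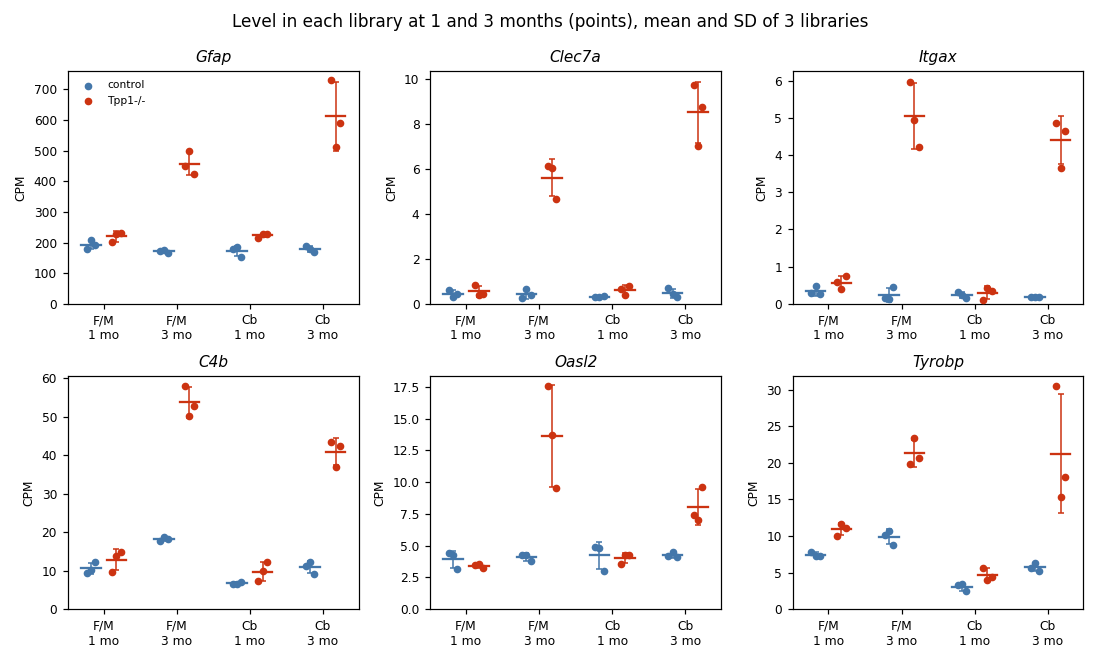
Level (CPM, 1 point per library, horizontal bar the mean of 3 libraries, error bar the SD) of Gfap, Clec7a, Itgax, C4b, Oasl2 and Tyrobp in control and Tpp1-/- mice at 1 and 3 months in F/M and Cb. For Gfap in F/M the 3-month Tpp1-/- libraries lie at 448, 498 and 425 CPM, above every library of the other groups.

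Of the 26 gene lists read here, that of disease-associated microglia held the most called genes in both regions. Clec7a, a receptor for fungal glucans that marks activated microglia, was in F/M at 0.612, 0.310 and 0.434 CPM in the 1-month controls, 0.836, 0.389 and 0.441 CPM in the 1-month Tpp1-/- mice, 0.255, 0.671 and 0.397 CPM in the 3-month controls and 6.11, 6.02 and 4.67 CPM in the 3-month Tpp1-/- mice. Only the 3-month Tpp1-/- libraries were high, and the 1-month groups overlapped. This gave a 3-month difference of 3.68 ± 0.30 and an age difference of 3.35 ± 0.53 (SE, edgeR adjusted p = 0.00979). In Cb the levels were 0.282, 0.314 and 0.365 CPM in the 1-month controls, 0.646, 0.378 and 0.801 CPM in the 1-month Tpp1-/- mice, 0.699, 0.414 and 0.319 CPM in the 3-month controls and 9.73, 7.03 and 8.74 CPM in the 3-month Tpp1-/- mice, and the 1-month Tpp1-/- libraries were all above the controls (difference 0.92 ± 0.42, unadjusted p = 0.0431, edgeR adjusted p = 0.63). Its 3-month difference in Cb was 4.14 ± 0.28, with an age difference of 3.22 ± 0.53 (SE, edgeR adjusted p = 0.00509). The promoter of Clec7a, 250 bases before to 50 after the transcript start (chr6:129472730-129473029, minus strand, GRCm38.p6, sequence from RefSeq), is shown because it holds GAGGAA, the core motif of the myeloid factor PU.1, which capitals mark.
Clec7a: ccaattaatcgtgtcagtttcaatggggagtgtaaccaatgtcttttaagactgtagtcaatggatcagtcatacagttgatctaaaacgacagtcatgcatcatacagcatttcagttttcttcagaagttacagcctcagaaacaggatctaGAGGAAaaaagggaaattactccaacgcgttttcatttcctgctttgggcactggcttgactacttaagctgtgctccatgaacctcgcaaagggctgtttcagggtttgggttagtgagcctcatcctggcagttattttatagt

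Itgax, the CD11c integrin subunit of dendritic and activated microglial cells, was in F/M at 0.278, 0.486 and 0.261 CPM in the 1-month controls, 0.585, 0.389 and 0.735 CPM in the 1-month Tpp1-/- mice, 0.153, 0.122 and 0.447 CPM in the 3-month controls and 5.97, 4.94 and 4.21 CPM in the 3-month Tpp1-/- mice. In Cb it was at 0.322, 0.224 and 0.166 CPM in the 1-month controls, 0.114, 0.432 and 0.356 CPM in the 1-month Tpp1-/- mice, 0.186, 0.184 and 0.182 CPM in the 3-month controls and 4.87, 3.66 and 4.65 CPM in the 3-month Tpp1-/- mice. Every library outside the 3-month Tpp1-/- groups was below 1 CPM and every library in them was above 3 CPM. The age differences were 3.61 ± 0.60 in F/M (SE, edgeR adjusted p = 0.0139) and 4.26 ± 0.66 in Cb (edgeR adjusted p = 0.00258, and 3.71 without the 3 libraries farthest from their group). Ccl6, a chemokine of myeloid cells, had a negative 1-month value in both regions (−0.20 in F/M and −0.02 in Cb, neither past the test) and rose at 3 months by 1.41 and 2.65. Lyz2, the lysozyme of phagocytes, rose at 3 months by 1.45 in F/M and 1.84 in Cb from 1-month values of 0.09 and 0.16. Both genes were called for the age difference in both regions, with edgeR adjusted p = 0.076 and 0.000849 for Ccl6 and 0.0492 and 0.00184 for Lyz2. The F/M calls were lost in 15 of 25 alternatives for Ccl6 and in 13 of 25 for Lyz2.

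Trem2, a lipid-sensing receptor, and Tyrobp, the adaptor through which it signals, had groups that did not overlap in F/M at 1 month, although no difference was called there. In F/M, Trem2 was at 7.29, 6.81 and 6.99 CPM in the 1-month controls, 10.7, 10.6 and 10.4 CPM in the 1-month Tpp1-/- mice, 8.37, 9.76 and 8.84 CPM in the 3-month controls and 15.1, 16.7 and 14.8 CPM in the 3-month Tpp1-/- mice. The 1-month groups differed by 0.59 ± 0.12 (unadjusted p = 0.000158, edgeR adjusted p = 0.706), beside 0.79 ± 0.20 at 3 months (edgeR adjusted p = 0.179), and neither was called. In Cb, Trem2 was at 3.54, 3.14 and 3.12 CPM in the 1-month controls, 3.65, 3.61 and 3.87 CPM in the 1-month Tpp1-/- mice, 3.77, 2.81 and 4.55 CPM in the 3-month controls and 17.5, 9.93 and 11.9 CPM in the 3-month Tpp1-/- mice. There it rose at 3 months by 1.82 ± 0.21 and had an age difference of 1.64 ± 0.25 (SE, edgeR adjusted p = 0.00184). For Tyrobp in F/M the levels were 7.79, 7.30 and 7.25 CPM in the 1-month controls, 10.03, 11.7 and 11.1 CPM in the 1-month Tpp1-/- mice, 10.2, 10.7 and 8.74 CPM in the 3-month controls and 19.8, 23.4 and 20.7 CPM in the 3-month Tpp1-/- mice. The groups were apart at both ages, by 0.55 ± 0.15 at 1 month (unadjusted p = 0.00218) and 1.10 ± 0.21 at 3 months (edgeR adjusted p = 0.0391), and the age difference of 0.55 was not called. In Cb the corresponding differences were 0.64 ± 0.17 and 1.89 ± 0.21, with an age difference of 1.26 ± 0.28 (SE, edgeR adjusted p = 0.0824). This call was lost in 14 of 27 alternatives.

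Other disease-associated genes were called in Cb and not in F/M. Cd68, a lysosomal membrane protein of phagocytes, was in Cb at 3.83, 2.56 and 2.29 CPM in the 1-month controls, 3.80, 3.56 and 2.31 CPM in the 1-month Tpp1-/- mice, 2.75, 2.99 and 2.41 CPM in the 3-month controls and 14.4, 9.51 and 9.83 CPM in the 3-month Tpp1-/- mice, so that only the 3-month groups were apart, and had an age difference of 1.90 ± 0.29 (SE, edgeR adjusted p = 0.00184). Lpl, lipoprotein lipase, was in Cb at 2.74, 2.51 and 2.02 CPM in the 1-month controls, 2.89, 2.86 and 3.65 CPM in the 1-month Tpp1-/- mice, 2.38, 2.53 and 1.5 CPM in the 3-month controls and 11.7, 7.87 and 9.21 CPM in the 3-month Tpp1-/- mice, against a 3-month difference of 0.22 ± 0.15 in F/M that did not pass the test. Its age difference in Cb was 1.79 ± 0.25 (edgeR adjusted p = 0.000967). Cd52, a small surface glycoprotein of leukocytes and microglia, had a Cb age difference of 2.76, and Lilrb4a, an inhibitory receptor with near-identical paralogs whose reads may be shared, one of 2.94, lost in 12 of 27 alternatives, beside a larger F/M value of 3.45 that was not called (edgeR adjusted p = 0.191). Of the 30 disease-associated genes, 4 were called higher in F/M and 11 in Cb, none lower, beside 0.0719% and 0.193% of all genes called higher. The median was 0.152 in F/M and 0.312 in Cb at 1 month, over the 24 members tested there. At 3 months it was 0.825 and 1.69, over all 30. The members tested at 3 months alone, such as Cst7 and Mmp12, raise the later medians, so the rise is in part a change of members. Medians of other lists likewise cover the members tested at each age. Over all genes tested, the medians were −0.00379 and −0.00264 in F/M and 0.00614 and −0.00271 in Cb. At 1 month, 21 of 24 tested members were positive in F/M and 22 of 24 in Cb, against 48.8% and 51.3% of all genes. Cst7, an inhibitor of lysosomal cathepsins, and Mmp12, a macrophage metalloproteinase, were too low at 1 month to be tested, and their means in 3-month Tpp1-/- mice were 3.40 and 0.939 CPM in F/M, and in Cb 4.06 and 0.774 CPM.

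Homeostatic microglial genes moved less. The 16 markers summed in Cb to 147 to 179 CPM in 1-month controls, 178 to 196 CPM in 1-month Tpp1-/- mice, 153 to 189 CPM in 3-month controls and 253 to 331 CPM in 3-month Tpp1-/- mice. In F/M the sums were 427 to 476, 446 to 502, 473 to 494 and 530 to 587 CPM. In bulk tissue, more cells of a type and more RNA per cell cannot be told apart, and this holds for every gene group described here. Fcrls, an Fc receptor-like gene of microglia, was the 1 member called, in Cb, where its levels were 7.25, 7.13 and 5.51 CPM in the 1-month controls, 9.46, 9.01 and 7.25 CPM in the 1-month Tpp1-/- mice, 6.01, 5.79 and 5.50 CPM in the 3-month controls and 27.7, 18.8 and 19.9 CPM in the 3-month Tpp1-/- mice. The groups were apart at both ages, at 1 month only just, by 0.37 ± 0.14 (unadjusted p = 0.0167) and 1.94 ± 0.14, and the age difference was 1.57 ± 0.20 (edgeR adjusted p = 0.000264). Median differences of the list were 0.0619 and 0.0425 in F/M and 0.138 and 0.455 in Cb at 1 and 3 months.

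Complement genes were called mainly in Cb. C4b, the complement component made by astrocytes and other glia, was in F/M at 9.34, 10.3 and 12.2 CPM in the 1-month controls, 9.69, 13.9 and 14.8 CPM in the 1-month Tpp1-/- mice, 17.8, 18.7 and 18.1 CPM in the 3-month controls and 57.99, 50.3 and 52.8 CPM in the 3-month Tpp1-/- mice. Controls were also higher at 3 months than at 1 month, but only at 3 months were the groups apart, with an age difference of 1.29 ± 0.23 (SE, edgeR adjusted p = 0.0267). In Cb its 1-month difference was 0.54 ± 0.20 (unadjusted p = 0.015) and its 3-month difference 1.91 ± 0.11. C1qa, C1qb and C1qc encode the chains of the C1q recognition molecule and were called in Cb only, with age differences of 1.56 ± 0.28, 1.18 ± 0.22 and 1.43 ± 0.24. For C1qb in Cb the levels were 10.6, 12.4 and 9.92 CPM in the 1-month controls, 16.8, 14.5 and 13.6 CPM in the 1-month Tpp1-/- mice, 16.9, 16.2 and 15.3 CPM in the 3-month controls and 70.7, 36.2 and 42.7 CPM in the 3-month Tpp1-/- mice, and the groups were apart at both ages. Of 17 complement genes tested, 1 was called higher in F/M and 5 in Cb, beside 0.0719% and 0.193% of all genes. All 17 were positive at 1 month in Cb, against 51.3% of all genes. Of these, 6 had an unadjusted p under 0.05, as did 4.43% of genes tested at both ages in the positive direction. In the same libraries all 24 choroid plexus markers, all 11 meningeal markers and 14 of 15 antigen presentation genes were positive too (medians 0.594, 0.319 and 0.24), and the part of this in the 1-month result was not tested. Among 18 Toll-like and Fc receptors and partners none was called in F/M and 1 in Cb, the inhibitory receptor Fcgr2b (1.61 ± 0.29, edgeR adjusted p = 0.013), though 17 of 18 age differences were positive in each region, beside 51% and 50.2% of all genes. Of 17 chemokines and cytokines tested, Ccl6 was the 1 called, in each region. The chemokine Cxcl10 was too low for a test at 1 month, and at 3 months it was 4.75, 2.93 and 1.85 CPM in F/M of Tpp1-/- mice against 0.408, 0.122 and 0.248 CPM in controls.

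Interferon-stimulated genes were called in F/M alone, and their median difference was near 0 at 1 month. Oasl2, an oligoadenylate synthetase-like gene, was in F/M at 4.39, 4.25 and 3.17 CPM in the 1-month controls, 3.47, 3.54 and 3.23 CPM in the 1-month Tpp1-/- mice, 4.28, 4.27 and 3.78 CPM in the 3-month controls and 17.6, 13.7 and 9.54 CPM in the 3-month Tpp1-/- mice. The 1-month groups overlapped with the Tpp1-/- mean below that of the controls (−0.20 ± 0.20), and all 3-month Tpp1-/- libraries were above all controls (1.72 ± 0.20). The age difference was 1.93 ± 0.30 (edgeR adjusted p = 0.00768). Ifi44, an interferon-induced gene, was in F/M at 1.56, 1.15 and 1.26 CPM in the 1-month controls, 0.794, 1.25 and 0.833 CPM in the 1-month Tpp1-/- mice, 1.12, 0.854 and 0.795 CPM in the 3-month controls and 3.98, 4.02 and 2.41 CPM in the 3-month Tpp1-/- mice, again with the 1-month mean lower and the 3-month mean higher in Tpp1-/- mice, and had an age difference of 2.35 ± 0.48 (SE, edgeR adjusted p = 0.0884), a call lost in 14 of 25 alternatives. Lgals3bp, a secreted galectin-binding protein, was in F/M at 12.6, 11.9 and 12.6 CPM in the 1-month controls, 14.2, 14.2 and 14.7 CPM in the 1-month Tpp1-/- mice, 13.97, 14.6 and 14.2 CPM in the 3-month controls and 47.4, 38.04 and 35.97 CPM in the 3-month Tpp1-/- mice, with groups apart at both ages and an age difference of 1.29 ± 0.23 (SE, edgeR adjusted p = 0.0276). Of 27 interferon-stimulated genes, 14 were DEGs (adjusted p under 0.1 and at least 1.5-fold) at 3 months in F/M and 3 in Cb, beside 0.412% and 0.673% of all genes that were higher DEGs. The 3 genes named here were the members called for the age difference in F/M, and none was called in Cb. Of all genes, 0.0719% and 0.193% were called higher. All 27 age differences were positive in F/M and 25 in Cb (51% and 50.2% of all genes), and the median difference went in F/M from 0.0669 to 0.99 and in Cb from −0.108 to 0.436. Ifit, Oas and Gbp genes have close paralogs, so reads may be shared among them. The promoter of Ifi44 (chr3:151749861-151750160, minus strand, GRCm38.p6, RefSeq), shown with the GAGGAA letters in capitals as for Clec7a, also holds the interferon-stimulated response element GAAANNGAA.
Ifi44: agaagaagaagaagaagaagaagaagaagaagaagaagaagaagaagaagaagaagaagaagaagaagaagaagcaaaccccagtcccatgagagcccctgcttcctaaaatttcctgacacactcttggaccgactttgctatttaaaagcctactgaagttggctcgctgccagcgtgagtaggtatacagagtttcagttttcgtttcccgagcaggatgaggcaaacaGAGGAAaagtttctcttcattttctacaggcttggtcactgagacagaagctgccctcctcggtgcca

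Promoters of this length were at hand for 11 of the 13 genes called higher in F/M, 26 of the 35 called higher in Cb, 14 of the 21 called lower in Cb and 12721 of all genes tested. GAGGAA, read on both strands, was in 5 (45.5%), 17 (65.4%) and 3 (21.4%) of the called promoters and in 30.5% of all. GAAANNGAA was in 3 (27.3%), 5 (19.2%) and none, against 8.62% of all. The E-box CACGTG, found in promoters of many lysosomal genes, and the cyclic AMP response element TGACGTCA were in none of the called promoters, against 10.9% and 3.29% of all. The searches found letters only, and a match does not show that a factor binds.

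Lysosomal genes as a list had small median differences at both ages, while single members rose at 3 months. Of 46 tested, 3 were higher DEGs at 3 months in F/M and 9 in Cb (0.412% and 0.673% of all genes), among them in Cb Cd68 (2.05), Ctss (1.44) and Ctsd (0.98). For the age difference, none was called in F/M and 4 were called higher in Cb (Cd68, Ctss, Laptm5 and Ctsc), beside 0.193% of all genes. Their median difference was 0.0823 at 1 month and 0.149 at 3 months in F/M, and 0.141 at both ages in Cb. At 1 month, 37 of 46 were positive in F/M and 40 of 46 in Cb, against 48.8% and 51.3% of all genes, and 5 and 11 of them had an unadjusted p under 0.05 in the positive direction, as did 0.916% and 4.43% of all genes tested at both ages. Grn, progranulin of lysosomes, was in F/M at 42.5, 43.2 and 42.9 CPM in the 1-month controls, 47.3, 52.5 and 55.2 CPM in the 1-month Tpp1-/- mice, 39.7, 44.02 and 40.5 CPM in the 3-month controls and 72.9, 72.4 and 64.4 CPM in the 3-month Tpp1-/- mice. Its groups were apart at both ages, by 0.27 ± 0.10 (unadjusted p = 0.0136) and 0.75 ± 0.12 (edgeR adjusted p = 0.00909), without a call for the age difference. Ctss, the cathepsin S of microglia, was in Cb at 22.9, 28.7 and 20.8 CPM in the 1-month controls, 33.8, 29.6 and 29.4 CPM in the 1-month Tpp1-/- mice, 37.5, 37.1 and 27.9 CPM in the 3-month controls and 118, 73.2 and 87.4 CPM in the 3-month Tpp1-/- mice, and it had an age difference of 1.08 ± 0.19 (SE, edgeR adjusted p = 0.0103). Ctsd, cathepsin D, differed by 0.30 ± 0.09 at 1 month and 0.98 ± 0.16 at 3 months in Cb, and the age difference was not called. The 3 genes of ATP synthase subunit c, the main stored protein, had median differences of 0.0687 and −0.0428 in F/M and 0.0159 and 0.00994 in Cb, and none was called.

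Of the Trim genes on chromosome 7, Trim12a, Trim30d and Trim34a had their larger difference at 1 month, whereas Trim30a in F/M was at −0.52 at 1 month (not past the test) and rose by 1.13 at 3 months (edgeR adjusted p = 0.0198). Trim12a (chr7:104299894-104315466, minus strand, on the chromosome of Tpp1) had 40, 21 and 33 counts in the 1-month F/M controls and 0 in all 3 Tpp1-/- libraries, and in Cb 50, 24 and 32 counts and again 0. Against a floor of 3 counts per library it was at least 11.4-fold lower in F/M and at least 10.1-fold lower in Cb (edgeR adjusted p = 0.0427 and 0.0527). Besides Tpp1 it was the only gene with an adjusted p under 0.1 at 1 month, in either region. At 3 months its levels were 1.46, 1.47 and 0.975 CPM in Tpp1-/- F/M against 0.816, 0.976 and 1.29 CPM in controls, and 2.17, 1.26 and 1.52 CPM against 1.07, 1.29 and 1.14 CPM in Cb, with overlap in both regions. Its age difference was called in both regions (edgeR adjusted p = 0.000749 and 0.000264), and its fitted size is no usable estimate.

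Trim30d (chr7:104470014-104507849) was in F/M at 1.5, 1.11 and 1.48 CPM in the 1-month controls, 0.251, 0.821 and 0.441 CPM in the 1-month Tpp1-/- mice, 1.22, 0.671 and 1.14 CPM in the 3-month controls and 2.43, 2.93 and 2.00 CPM in the 3-month Tpp1-/- mice. The groups were apart at both ages in opposite directions, lower in Tpp1-/- mice at 1 month (−1.42 ± 0.44, unadjusted p = 0.00562, edgeR adjusted p = 1) and higher at 3 months (1.25 ± 0.25, edgeR adjusted p = 0.0477). In Cb it was at 1.85, 1.03 and 0.796 CPM in the 1-month controls, 0.266, 0.108 and 0.401 CPM in the 1-month Tpp1-/- mice, 1.54, 1.52 and 1.77 CPM in the 3-month controls and 1.85, 1.6 and 2.04 CPM in the 3-month Tpp1-/- mice, with the groups apart at 1 month and overlapping at 3 months. The age differences were 2.67 ± 0.50 and 2.36 ± 0.53 (edgeR adjusted p = 0.044 and 0.0832), calls lost in 10 of 25 alternatives in F/M and 11 of 27 in Cb. Trim34a had 1-month differences of −1.33 ± 0.43 in F/M and −1.18 ± 0.40 in Cb, followed by 0.89 ± 0.23 and 0.31 ± 0.24, and was not called. Of 17 tested Trim genes and neighbours of Tpp1, 2 were called higher in each region, beside 0.0719% of all genes in F/M and 0.193% in Cb. Trim12, Trim30 and Trim34 genes are near-identical neighbours, so that reads counted for 1 of them may belong to another, and the annotation differed between the ages.

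**Figure D3:**
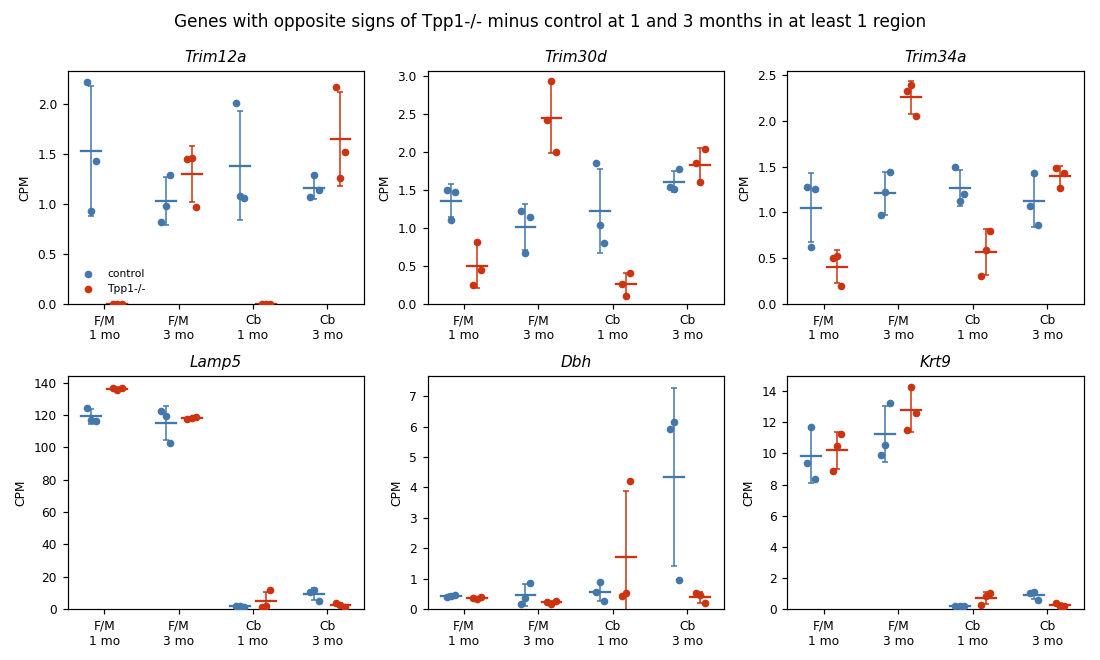
Level (CPM, 1 point per library, horizontal bar the mean of 3 libraries, error bar the SD) of Trim12a, Trim30d, Trim34a, Lamp5, Dbh and Krt9 by genotype, age and region. In Cb, Dbh is high in 1-month Tpp1-/- replicate 3 and 3-month controls 1 and 2 and below 1 CPM in the other 9 libraries.

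The 21 genes called lower were called in Cb alone, and all 21 had a positive difference at 1 month and a negative one at 3 months. These signs come from the fit by which the genes were chosen, and the choice favours opposite signs. Among them were Krt9, Eml2, C1ql3, Dbh, Gm40518, Lamp5, Slc6a2, Slc5a5, Ddn, Tcaf2, Kcnab2, Crtac1, Pcsk5, Gm43279, Klhdc8a, Sost, Gm31166, Grm2 and Map3k15. None of them was called when the 12 Cb libraries were fitted alone. Krt9, a keratin gene, was in Cb at 0.201, 0.179 and 0.166 CPM in the 1-month controls, 0.266, 0.809 and 1.02 CPM in the 1-month Tpp1-/- mice, 1.02, 1.10 and 0.592 CPM in the 3-month controls and 0.402, 0.168 and 0.190 CPM in the 3-month Tpp1-/- mice. The groups were apart at each age, in opposite directions (1.87 ± 0.48 and −1.79 ± 0.37), with an age difference of −3.65 ± 0.63 (SE, edgeR adjusted p = 0.00821). In F/M, Krt9 was at 9.83 ± 1.71 CPM (SD, n = 3) in 1-month controls, 10.2 ± 1.19 CPM in 1-month Tpp1-/- mice, 11.2 ± 1.79 CPM in 3-month controls and 12.8 ± 1.40 CPM in 3-month Tpp1-/- mice.

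Several of the lower genes were high in the same 3 Cb libraries. Dbh, dopamine beta-hydroxylase of noradrenergic neurons, was in Cb at 0.564, 0.897 and 0.266 CPM in the 1-month controls, 0.418, 0.539 and 4.23 CPM in the 1-month Tpp1-/- mice, 5.92, 6.16 and 0.955 CPM in the 3-month controls and 0.523, 0.463 and 0.190 CPM in the 3-month Tpp1-/- mice. Slc6a2, the noradrenaline transporter, was at 1.09, 2.06 and 0.199 CPM in the 1-month controls, 0.798, 0.971 and 6.32 CPM in the 1-month Tpp1-/- mice, 10.2, 9.98 and 0.546 CPM in the 3-month controls and 0.443, 0.253 and 0.237 CPM in the 3-month Tpp1-/- mice, and the same libraries were high, namely 1-month Tpp1-/- 3 and 3-month controls 1 and 2. Lamp5, a membrane protein of forebrain neurons with 115 to 136 CPM as group means in F/M, was in Cb at 1.89, 2.02 and 1.49 CPM in the 1-month controls, 1.48, 2.10 and 11.5 CPM in the 1-month Tpp1-/- mice, 10.4, 12 and 4.96 CPM in the 3-month controls and 3.66, 2.27 and 0.997 CPM in the 3-month Tpp1-/- mice, with those libraries high again. Age differences were −5.05 ± 1.03, −5.76 ± 1.26 and −3.44 ± 0.71 (edgeR adjusted p = 0.0371, 0.0757 and 0.0438). Without the 3 Cb libraries farthest from their group, Dbh was at −6.30, Slc6a2 at −7.15 and Lamp5 at −4.74, all called (edgeR adjusted p = 9.12e-05, 0.000144 and 4.72e-05). Without the 3 libraries high in Dbh they were −1.0, −0.48 and −1.04, none called (edgeR adjusted p = 0.503, 0.87 and 0.178), in a fit that keeps 1 control of 3 months in Cb and leaves out libraries chosen on these values, so that it is no test of them. Over 27 alternatives the calls were lost in 13 for Dbh, 16 for Slc6a2 and 13 for Lamp5. The 15 midbrain and thalamus markers summed to 343, 323 and 322 CPM in the 3 libraries high in Dbh and to 282 to 338 CPM in the other 9, and the part of tissue carried along in the result was not tested. Of 12 cortex and striatum markers, 2 were called lower in Cb, Lamp5 among them, beside 0.116% of all genes, and none was called in F/M. Gm40518 rested on at most 14 counts in a Cb library.

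Among lower genes with a smaller difference, Slc5a5 and Tcaf2 had libraries close together within each group, yet their calls were lost in 14 and 17 of 27 alternatives. Slc5a5, an iodide transporter, was in Cb at 3.34, 2.78 and 2.52 CPM in the 1-month controls, 4.45, 5.02 and 4.32 CPM in the 1-month Tpp1-/- mice, 4.19, 4.92 and 5.14 CPM in the 3-month controls and 4.54, 4.42 and 4.42 CPM in the 3-month Tpp1-/- mice, so that only the 1-month groups were apart (0.67 ± 0.14, unadjusted p = 0.000249), with an age difference of −0.76 ± 0.17 (SE, edgeR adjusted p = 0.0824). Tcaf2, which encodes a channel-associated factor, was in Cb at 1.13, 1.12 and 1.06 CPM in the 1-month controls, 2.05, 1.94 and 1.74 CPM in the 1-month Tpp1-/- mice, 1.58, 1.66 and 1.77 CPM in the 3-month controls and 1.33, 1.14 and 1.04 CPM in the 3-month Tpp1-/- mice, apart at each age and in opposite directions, with an age difference of −1.29 ± 0.29 (SE, edgeR adjusted p = 0.0868).

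Among the differences seen at 3 months, most higher genes of both regions already had their sign at 1 month, and most lower genes of Cb had the opposite one. DEGs at 3 months numbered 80 in F/M (0.464% of 17224 genes), of which 71 were higher (0.412%) and 9 lower (0.0523%). There were 148 in Cb (0.859%), with 116 higher (0.673%) and 32 lower (0.186%). With 1 library left out they numbered 34 to 66 in F/M (34 without control 2, and under 50 in 5 of 6 cases) and 104 to 206 in Cb. At 1 month, 2 genes in each region met this rule (0.0112% of 17916 genes), or 272 in Cb without Tpp1-/- 3, and 338 in F/M (1.89%) and 1373 in Cb (7.66%) had an unadjusted p under 0.05. In F/M, 44 of the 62 higher DEGs that could be tested at 1 month had the same sign there (71%, beside 49.1% positive of all 17035 genes tested at both ages). Of these 44, 5 had an unadjusted p under 0.05 at 1 month (8.06% of the 62, against 0.916% of all genes). They were Csf3r, Grn, Ctss, Tyrobp and Pld4. Non-overlapping 1-month groups in the same direction were found for 9 of the 62 (14.5%, against 8.71% of all genes). In Cb, 83 of 105 had the same sign (79%, beside 51.6%) and 20 of them an unadjusted p under 0.05 (19%, beside 4.43%), among them Gfap, C4b, Clec7a, Fcrls, Lag3, Lpl, Ctss, Tyrobp, C1qa, C1qb, C1qc, Ctsd and Grn. Here 22 of the 105 had non-overlapping 1-month groups in the same direction (21%, against 4.09% of all genes). The medians of the higher DEGs were 0.126 at 1 month and 1.21 at 3 months in F/M and 0.242 and 1.27 in Cb. The 1- and 3-month libraries share no mouse, but genes are not independent replicates and members of 1 cell program move together, so the shares carry no test. Without the Cb libraries farthest from their group, 677 genes met the 3-month rule, and of the 643 of them tested at 1 month 297 (46.2%) had the same sign there, against 88 of 136 (64.7%) with all libraries. For DEGs of both directions the share in F/M was 50 of 71 (70.4%), and over all genes tested at both ages the sign was the same in 47.7% in F/M and 54% in Cb.

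Some DEGs of 3 months had the opposite sign at 1 month. In F/M, 18 of 62 higher DEGs had a lower 1-month mean in Tpp1-/- mice, among them the interferon-inducible Oasl2, Ifi44, Ifit1, Ddx60, Ddx58, Parp14, Oas2, Gbp3 and Gbp6 and the Trim genes Trim30a and Trim30d, and only Trim30d had an unadjusted p under 0.05. Interferon-inducible DEGs were also found among those of the same sign, such as Ifit3, Irf7, Usp18, Rsad2 and Lgals3bp, and 14 of 26 interferon-stimulated genes tested were positive at 1 month in F/M (53.8%, beside 48.8% of all genes). In Cb, 22 of 105 higher DEGs had the opposite sign, none with such a p. Lower DEGs of Cb were mostly of opposite sign: 26 of the 31 that could be tested were positive at 1 month, with 5 at an unadjusted p under 0.05 (Krt9, Gm40518, Lamp5, Dbh and Nr4a3), and their median went from 0.226 to −1.03. The 5 of the same sign were Tpp1, Stum, Ankfn1, Oprd1 and Serpinb1b, against 48.3% of all genes that were negative at 1 month, and Tpp1 alone had an unadjusted p under 0.05 (3.39% of all genes) and groups apart (4.09%). Of the 9 lower DEGs of F/M, 6 had the same sign at 1 month (50.9% of all genes were negative), and Tpp1 was the 1 with an unadjusted p under 0.05 or with groups apart (0.916% and 6.28% of all genes). Nr4a3, an immediate early transcription factor, was in Cb at 20.6, 13.9 and 23.8 CPM in the 1-month controls, 43.4, 19.8 and 24.3 CPM in the 1-month Tpp1-/- mice, 47.1, 47.4 and 62.1 CPM in the 3-month controls and 24.9, 36.8 and 35.1 CPM in the 3-month Tpp1-/- mice, with overlap at 1 month and separation at 3 months.

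**Figure D4:**
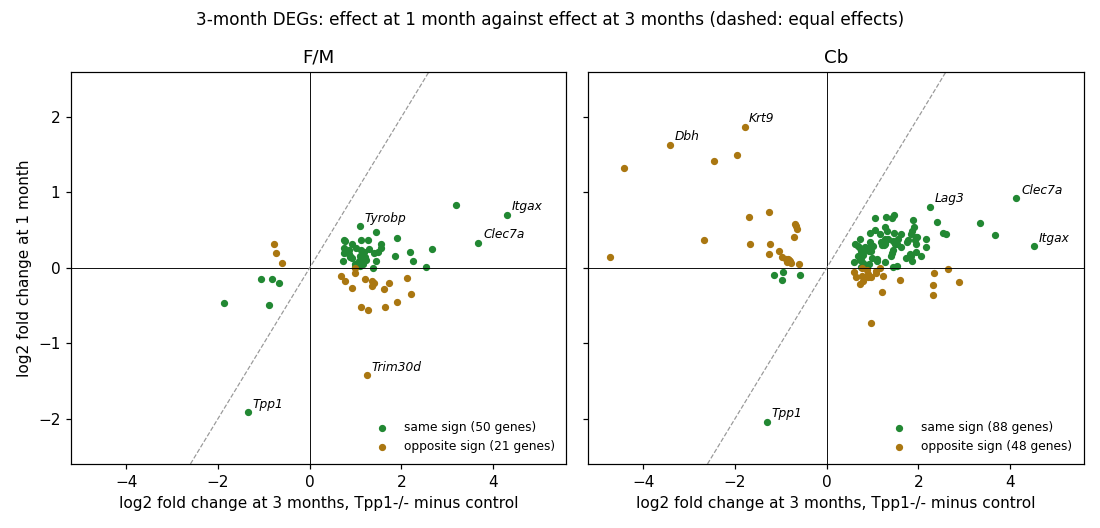
Difference between Tpp1-/- and control mice at 1 month (vertical axis, log2) against that at 3 months (horizontal axis, log2) for the 3-month DEGs tested at both ages, 1 point per gene, in F/M and Cb, and the dashed line marks equal values. Higher genes lie near 0 at 1 month, with medians of 0.126 in F/M and 0.242 in Cb, and most lower Cb genes lie above 0 (Gm40518, with 0 counts in its 1-month controls, is not drawn).

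In the reverse direction, 156 genes of F/M were higher in Tpp1-/- mice at 1 month with an unadjusted p under 0.05, and 90 of these (57.7%) were positive at 3 months, beside 49.1% of all genes. Of 156 lower ones, 77 (49.4%) were negative, beside 50.9%. In Cb, 442 of 754 higher genes (58.6%) and 297 of 578 lower genes (51.4%) kept their sign, beside 49.2% and 50.7%. The DEG rule at 3 months was met in the same direction by 5 of the 156 higher genes in F/M and 20 of the 754 in Cb, against 0.412% and 0.673% higher DEGs among all genes tested at 3 months, and by 1 lower gene in each region, against 0.0523% and 0.186%.

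Lag3, an inhibitory receptor also made by neurons, shows the pattern of a small early and a larger later difference in Cb. Its levels there were 1.45, 0.897 and 1.29 CPM in the 1-month controls, 2.24, 2.37 and 1.87 CPM in the 1-month Tpp1-/- mice, 1.30, 1.47 and 0.910 CPM in the 3-month controls and 6.84, 5.35 and 5.41 CPM in the 3-month Tpp1-/- mice. The groups were apart at both ages, by 0.81 ± 0.22 (unadjusted p = 0.00206) and 2.25 ± 0.19, and the age difference was 1.44 ± 0.28 (edgeR adjusted p = 0.0237). In F/M it was at 3.23, 4.29 and 3.95 CPM in the 1-month controls, 4.97, 5.14 and 4.21 CPM in the 1-month Tpp1-/- mice, 3.31, 3.90 and 3.23 CPM in the 3-month controls and 10.3, 10.3 and 10.2 CPM in the 3-month Tpp1-/- mice, with overlap at 1 month and an age difference of 1.25 ± 0.24 (SE, edgeR adjusted p = 0.0486). The calls were lost in 6 of 27 alternatives in Cb and 11 of 25 in F/M.

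Gene lists without a call also differed between the ages in their medians. Choroid plexus genes were positive in 24 of 24 cases at 1 month in Cb, beside 51.3% of all genes, and 11 of them had an unadjusted p under 0.05, as did 4.43% of genes tested at both ages in the positive direction. Their median of 0.594 at 1 month was −0.0294 at 3 months. None of the 25 was called for the age difference. Their summed level at 1 month was 1880.0, 1300.0 and 678 CPM in the Cb controls and 1660.0, 1780.0 and 2620.0 CPM in Tpp1-/- mice, and the groups overlapped. Immediate early genes had medians of 0.0426 and −0.287 in F/M and 0.266 and −0.267 in Cb, with 18 of 19 age differences negative in F/M and 15 in Cb, none called. At 3 months, 1 was a lower DEG in F/M (Btg2, −0.77) and 4 were in Cb (Fosb, Nr4a1, Nr4a2 and Nr4a3, −0.65 to −0.72), beside 0.0523% and 0.186% of all genes. Myelin genes had medians of −0.0557 and −0.21 in F/M and 0.0823 and −0.191 in Cb, again without a call. Antigen presentation, sterol synthesis, circadian clock, cell cycle, metallothionein and redox, endothelial, meningeal, Purkinje cell, granule cell, and midbrain and thalamus lists had no called member in either region. Midbrain and thalamus markers nevertheless summed in F/M to 426 to 432 CPM in 3-month controls and 320 to 367 CPM in 3-month Tpp1-/- mice, which did not overlap, and at 1 month to 343 to 386 and 305 to 364 CPM. Meningeal markers summed in Cb at 1 month to 139 to 168 CPM in controls and 175 to 207 CPM in Tpp1-/- mice, without overlap. Of the 11, 3 were higher at an unadjusted p under 0.05, as were 4.43% of genes tested at both ages. The median difference of midbrain and thalamus markers at 3 months in F/M was −0.303, with 1 lower DEG (Prkcd, −0.81), and the part of this shift in the F/M results was not tested beyond the fit of F/M alone with their score as a covariate, which called 454 genes against 602 without it. Blood and leukocyte markers summed in F/M to 79.7 to 91.4 CPM in 3-month controls and 44.3 to 66.4 CPM in 3-month Tpp1-/- mice, and to 153 to 201 CPM over both groups at 1 month, and none of the 9 tested was called.

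**Figure D5:**
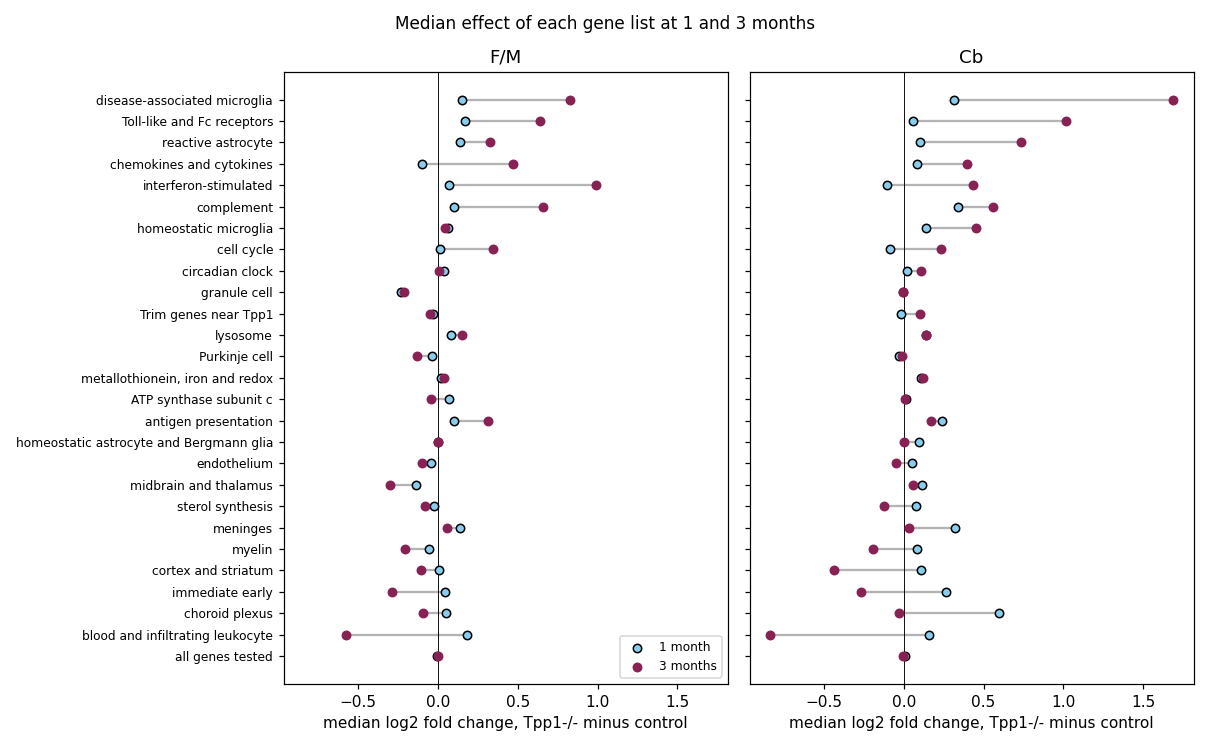
Median log2 difference between Tpp1-/- and control mice at 1 month and at 3 months for each of 26 gene lists and for all genes tested, in F/M and Cb. Each median covers the list members tested at that age. The disease-associated microglia list is at 0.152 in F/M and 0.312 in Cb at 1 month (24 members). It is at 0.825 and 1.69 at 3 months (30 members, those added being mostly high there). Choroid plexus in Cb goes from 0.594 to −0.0294.

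Whether the age difference itself was larger in Cb than in F/M was tested gene by gene, as a comparison added after the values were seen. None of 18092 genes was called by edgeR (smallest adjusted p = 0.165, 427 at an unadjusted p under 0.05) or by limma-voom (399), and DESeq2 called 3 (Lpl, Gm40518 and Krt9, 370 at an unadjusted p under 0.05). With same-numbered F/M and Cb libraries of an age and genotype taken as 1 mouse and used as a block, edgeR again called none (421 at an unadjusted p under 0.05), though the labels do not say that a number marks a mouse. A call in 1 region alone therefore does not show that the regions differ for that gene.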

How the data were processed

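Libraries of 1 and 3 months were taken from the labels, as was each group. Reads of 50 bases from a stranded kit were aligned by the authors with STAR 2.5.2b and counted per gene, and they deposited raw whole-number counts without normalization. Per the file headers, featureCounts 1.6.3 with GENCODE M21 (strand setting 1) made the counts of 1 month and version 1.6.2 with M18 (strand setting 1) those of 3 months, on GRCm38. The headers name fractional counting, yet every count is whole. Genes were matched by Ensembl identifier without version (54079), and 52611 of them had the same exon length in both annotations.

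The age difference came from edgeR 4.0.16 (R 4.3.3): filterByExpr, TMM scaling and a two-sided quasi-likelihood F test on 8 groups of 3 libraries, with Benjamini-Hochberg adjustment over 18092 genes. Differences within an age came from a fit of its 12 libraries, so an age difference is not exactly the difference of the printed values. P values measure the spread between mice of a group. A depth of 3 counts or fewer per library was taken as the limit of detection. The fit of 24 libraries was also run on simulated counts of 17900 genes. For 100 genes changed by 1 log2 unit, it called 76 (F/M) and 74 (Cb). For 100 changed by 2 log2 units, it called 95 (F/M) and 96 (Cb). False calls numbered 16 in each region. Power and false calls in the real libraries, some of which lay far from their group, were not estimated.

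The 119 genes named by rule were Tpp1 and genes called at 1 month, called genes with the largest age difference, called genes larger at 1 month, 3-month DEGs with the smallest p at 1 month by sign, up to 4 members of each of 26 gene lists, and members of counts of 5 or fewer. Further genes are named from the calls after their values were seen, and a few genes that the counts include are not reported here by name. Members, lists and rules were chosen with earlier results of these data known. Alternatives were RLE size factors, library totals, other filters, DESeq2 1.42.0, limma-voom (limma 3.58.1), a replicate block, the sex label, each region alone, tissue scores, all 36 libraries, stricter thresholds and each library left out. Same-numbered Tpp1-/- and control libraries had correlations of their deviations between −0.067 and 0.191, and those with different numbers between −0.252 and 0.125. The numbers were not taken as pairs in the main fits, and the labels do not say whether they mark pairs. Figures were drawn with Python 3.11.15 and matplotlib 3.10.9.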

Additional observations from a re-analysis of the deposited data

Results flagged for a closer look

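Each result here stands out because the difference between Tpp1-/- and control mice was not the same at 1 and 3 months, by the test of that difference itself (edgeR, Benjamini-Hochberg adjusted p under 0.1). Values are log2 age differences, 3 months minus 1 month, except for genes with a group at the limit of detection, which are given by their adjusted p. No explanation was weighed for any of them.

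In F/M the values were 1.22 for Gfap, 1.93 for Oasl2, 3.35 for Clec7a, 3.61 for Itgax, 1.29 for C4b, 1.29 for Lgals3bp, 2.67 for Trim30d, 1.25 for Lag3, 1.37 for Lyz2, 1.61 for Ccl6 and 2.35 for Ifi44, and the edgeR adjusted p was 0.00075 for Trim12a.

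In Cb the values above 0 were 1.41 for Gfap, 1.57 for Fcrls, 2.67 for Ccl6, 1.79 for Lpl, 2.15 for Serpina3n, 1.64 for Trem2, 1.90 for Cd68, 1.69 for Lyz2, 4.26 for Itgax, 3.22 for Clec7a, 1.37 for C4b, 1.43 for C1qc, 2.76 for Cd52, 1.56 for C1qa, 1.08 for Ctss, 1.61 for Fcgr2b, 0.85 for Laptm5, 1.18 for C1qb, 1.44 for Lag3, 0.87 for Ctsc, 2.94 for Lilrb4a, 1.26 for Tyrobp, 2.36 for Trim30d and 3.25 for Ly9, and the edgeR adjusted p was 0.000264 for Trim12a. Those below 0 were −3.65 for Krt9, −5.05 for Dbh, −3.44 for Lamp5, −5.76 for Slc6a2, −0.76 for Slc5a5 and −1.29 for Tcaf2, and the edgeR adjusted p was 0.0438 for Gm40518.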

How the results depend on the processing

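Only the 44 age differences of named genes that were called were followed. None of them changed sign in any alternative, but the alternatives refit most of the same libraries, so a kept sign is a weak check. In all alternatives 8 stayed called: Gfap and Trim12a in both regions, Oasl2 in F/M, and Ccl6, Fcrls and Itgax in Cb. The count of called age differences moved more. Without the filter it was 69 in F/M and 203 in Cb, with DESeq2 36 and 95, and with each region alone 602 and 8, or 287 and 8 with a choroid plexus score and 454 and 14 with a midbrain and thalamus score. Without replicate 3 of both 1-month groups, which leaves out the Tpp1+/- mice, it was 4 and 29. All 36 libraries gave 28 in F/M. In Cb, limma-voom gave 32, agreement of the 3 tools 30 and an adjusted p under 0.05 32. A further 2 alternatives were chosen after seeing the data, and gave 908 without the 3 Cb libraries farthest from their group and 2018 without the 3 with most Dbh, a fit that keeps 1 control of 3 months in Cb, which is assumed to vary like the other groups. Leaving out 1 library gave 5 to 11 in F/M (5 without 3-month control 3 or 3-month Tpp1-/- 1) and 28 to 823 in Cb (28 without 3-month Tpp1-/- 3).

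At 1 month the count of 2 was 16 in F/M and 82 in Cb without the filter, 4 and 5 with DESeq2, 1 in Cb without the library farthest from its group, and 1 to 2 and 1 to 272 with 1 library left out (272 without Cb Tpp1-/- 3). The 80 and 148 DEGs of 3 months became 189 and 296 without the filter, 34 to 66 and 104 to 206 with 1 library left out, and 677 in Cb without the farthest libraries. Genes of the same sign numbered 50 and 88, and 122 of 187 and 167 of 292 without the filter, 297 of 643 in Cb without the farthest libraries, and 44 to 49 and 84 to 101 with 1 library left out. The causes were not tested. With the replicate number as a block, 9 genes were called in F/M and 45 in Cb, of which 7 and 36 were among the 13 and 56. The labels do not say whether the numbers pair the samples, so a call lost there cannot be read either way. Depth limits genes with few reads, and 9 DEGs of 3 months in F/M and 12 in Cb could not be tested at 1 month.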

Other observations

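Other genes near Tpp1 on chromosome 7 also differed at 1 month at an unadjusted p under 0.05, none of them past the adjusted threshold. Trim34b, a near-identical neighbour of Trim34a, went in the opposite direction to it, with 1-month differences of 3.14 in F/M (unadjusted p = 0.00148, edgeR) and 1.59 in Cb (unadjusted p = 0.0229), beside −1.33 and −1.18 for Trim34a. It was too low to be tested at 3 months, and reads may be shared between the 2 genes. Dchs1, a cadherin-related cell adhesion gene, was lower at both ages in both regions without a call, by −0.49 (unadjusted p = 0.00238, edgeR) and −0.43 in F/M and by −0.51 (unadjusted p = 0.0019) and −0.66 in Cb. Its 1-month groups did not overlap in either region, and its age differences were 0.06 and −0.14, so it showed no change with age that passed the test.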
